A study of Mus musculus with 6 samples.

Results

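The genes of Schwann cells and of the myelin they make were followed in the dental pulp, with and without MMP13, through 8 members, *Mbp*, *Pmp22*, *Pmp2*, *Prx*, *Mag*, *Egr2*, *Sox10* and *S100b*, chosen by gene symbol from a table of 53342 genes in WT and Mmp13-/- mice. Each symbol matched a single row, 7 members passed the filter on low counts beside 24534 genes in all, and *Pmp2* did not. RNA sequencing had been carried out on 3 WT and 3 Mmp13-/- libraries from C57BL/6 mice aged 3 months, described by the study as independent biological samples. The Mmp13-/- animals carry a homozygous loss of *Mmp13*, the gene of the collagenase MMP13, in every tissue rather than in a chosen cell type. WT libraries are numbered 2, 4 and 5 and Mmp13-/- libraries 1, 2 and 6, and the numbers do not pair the animals. The growth protocol in the labels names molars for both genotypes, the titles name molars for the WT samples only, and the study's methods name incisors. The tooth is therefore not settled here, and a difference in tooth between genotypes cannot be told apart from the genotype. In all samples the whole pulp was sequenced without sorting of cells.

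Schwann cells wrap the axons of peripheral nerves, and those that pair with a large axon build myelin, a stack of membrane held together by a small set of abundant proteins. Sox10 is the transcription factor that keeps cells in the Schwann lineage, and it acts with Egr2 to switch on the myelin genes. In the tooth, sensory fibres enter through the root with both myelinating and non-myelinating Schwann cells, and most fibres lose their myelin as they branch beneath the odontoblasts.

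The loss of *Mmp13* was visible in each library. Normalized counts of *Mmp13*, that is counts scaled to the mean library with TMM factors, ran from 816 to 1059 in the WT libraries and from 8.74 to 63.2 in the Mmp13-/- libraries, a log2 fold change of -4.96 with an SE of 0.46 (edgeR adjusted p = 7.67e-05). Library totals ran from 28442936 to 29980236 counts in WT and from 21561420 to 26547121 in Mmp13-/-, so that 3 counts correspond to between 0.1 and 0.139 CPM, the count scaled to the library total. Library 6 of Mmp13-/- stood apart, with 30.5% of its counts in a single gene against 4.48% to 6.88% elsewhere. Odorant and vomeronasal receptor genes, taken here as a measure of stray signal, took 1196 CPM there, 308 and 355 in Mmp13-/- libraries 1 and 2 and 17.8 to 20.8 in WT. The study lists odorant receptors among its upregulated pathways, and whether these counts are stray was not tested. Marker genes of other tissues also separated the genotypes: all 8 neutrophil genes and all 8 B cell genes were higher in Mmp13-/-, and 7 of 9 skeletal muscle genes were lower. The summed level of the muscle genes was 1413490 to 1671920 in WT and 258008 to 621191 in Mmp13-/-. Over all tested genes 27.3% were higher and 24.3% lower at an adjusted p under 0.05 (edgeR). Defining odontoblast genes were present in all libraries, and 3 of 8 rose and 3 fell, but their summed level was 1008840 to 1219300 in WT and 306864 to 386510 in Mmp13-/-, without overlap. The part of these differences in the values below was not tested. In whole tissue, fewer Schwann cells and less RNA per Schwann cell cannot be told apart.

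Since the data bear on genes that Sox10 and Egr2 regulate, the 250 bases before the start of 4 members are shown, from RefSeq on GRCm38.p6 and in the direction of transcription. They are *Prx*, the tested member with the largest fold change, *S100b*, the one whose libraries were all higher in Mmp13-/-, and *Mag* and *Egr2*, which held a match to a searched motif. Capitals mark a match to ACAAAG or ACAATG, forms of the core that Sox proteins read, or to GTGGGCG, the core that Egr proteins read, on either strand. The first 2 motifs begin with the same letters, and no matches overlapped.
*Prx* (chr7:27499074-27499323, + strand): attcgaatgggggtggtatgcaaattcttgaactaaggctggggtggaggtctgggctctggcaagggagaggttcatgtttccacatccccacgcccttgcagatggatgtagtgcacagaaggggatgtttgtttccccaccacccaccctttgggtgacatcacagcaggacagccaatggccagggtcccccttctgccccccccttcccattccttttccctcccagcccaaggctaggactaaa
*S100b* (chr10:76253586-76253835, + strand): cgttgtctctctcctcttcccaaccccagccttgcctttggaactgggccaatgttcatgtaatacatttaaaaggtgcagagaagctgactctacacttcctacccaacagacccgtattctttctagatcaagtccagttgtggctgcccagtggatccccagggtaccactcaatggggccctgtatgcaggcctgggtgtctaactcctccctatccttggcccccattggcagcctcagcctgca
*Mag* (chr7:30914864-30915113, - strand): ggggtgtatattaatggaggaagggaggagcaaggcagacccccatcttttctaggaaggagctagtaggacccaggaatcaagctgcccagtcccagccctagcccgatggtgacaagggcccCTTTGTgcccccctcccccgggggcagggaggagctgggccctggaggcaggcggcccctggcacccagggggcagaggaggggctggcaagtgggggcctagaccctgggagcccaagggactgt
*Egr2* (chr10:67535249-67535498, + strand): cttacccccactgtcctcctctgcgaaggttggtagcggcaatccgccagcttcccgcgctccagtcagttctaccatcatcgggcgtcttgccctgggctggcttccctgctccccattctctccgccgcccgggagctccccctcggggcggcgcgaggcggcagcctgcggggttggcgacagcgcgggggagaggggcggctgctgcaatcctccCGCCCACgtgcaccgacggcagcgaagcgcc
The *Mag* window held ACAAAG on the opposite strand, with the match beginning 126 bases before the start. The *Egr2* window held GTGGGCG on the opposite strand, 31 bases before the start. Neither *Prx* nor *S100b*, nor the window of *Pmp22*, held any of these letters. Of 32851 promoter windows of this length, 16.5% hold ACAAAG, 10.7% ACAATG and 7.02% GTGGGCG, so a match in 1 window describes that sequence only. *Mbp*, *Pmp2* and *Sox10* were not matched in the RefSeq table.

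Of the 7 members tested, 2 fell in Mmp13-/- and 0 rose at an adjusted p under 0.05 (edgeR quasi-likelihood test over all genes), where 24.3% of all tested genes fell and 27.3% rose. *Prx* and *Sox10* were those that fell. The median log2 fold change of the 7 members was -0.32, against 0.10 over all tested genes. In 3 members, *Prx*, *Sox10* and *S100b*, the libraries of the genotypes did not overlap, as was the case for 60.9% of all tested genes, with Mmp13-/- lower in 29.1% and higher in 31.8%. An exact permutation test of 3 against 3 libraries cannot give a two-sided p below 0.1, so differences are judged by the fit across all genes.

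**Figure D1:**
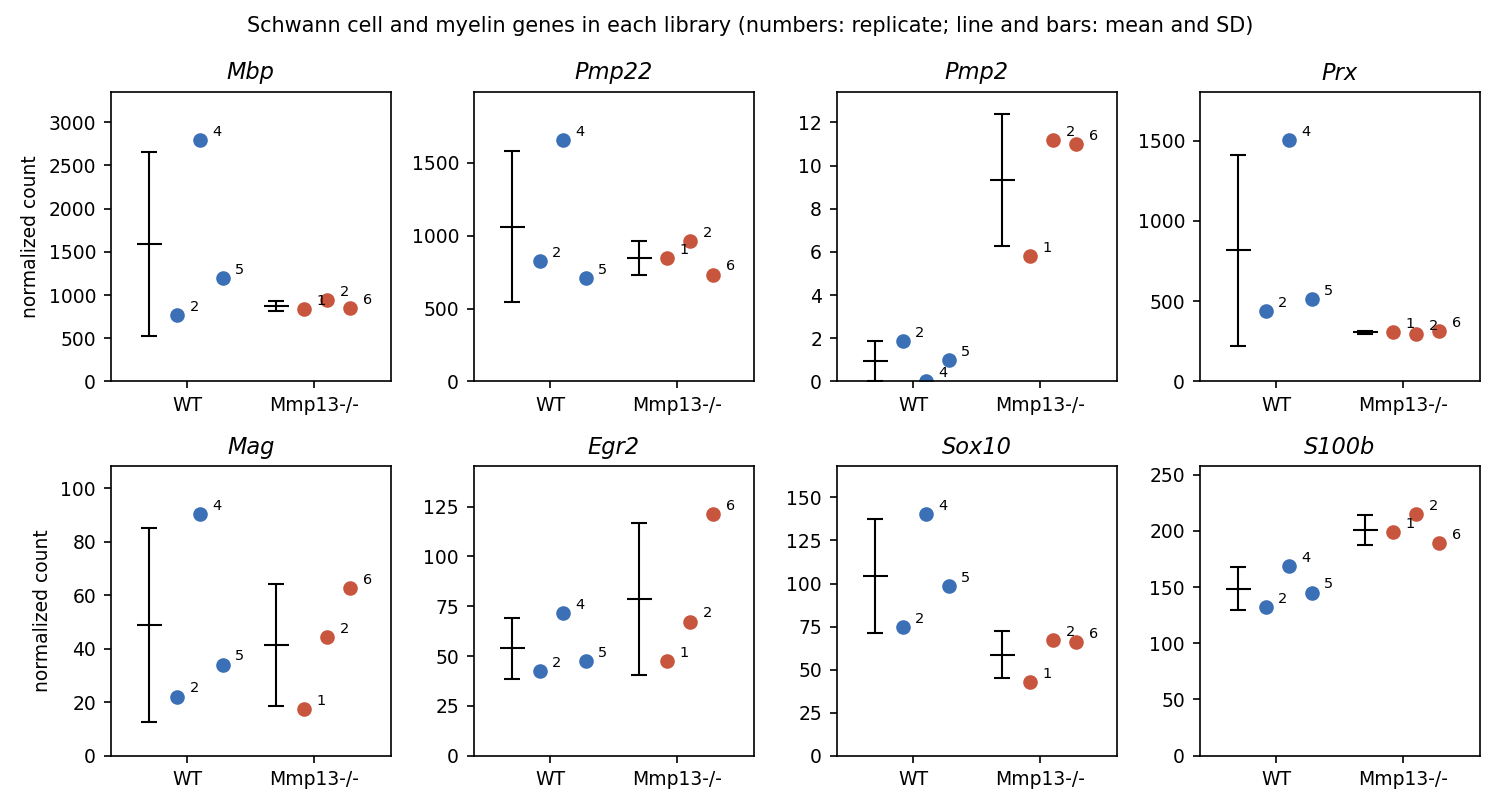
Normalized counts (y axis, linear from 0) of the 8 members in the 3 WT and 3 Mmp13-/- libraries, each point a library marked with its replicate number, with the mean and SD of each genotype to the left of its points. WT replicate 4 is the highest WT library in every panel but that of *Pmp2*, and only in *Prx*, *Sox10*, *S100b* and *Pmp2* are the genotypes fully apart.

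*Prx* (ENSMUSG00000053198, GRCm38 chr7:27499324-27520214, + strand) encodes periaxin, a scaffold of the Schwann cell membrane that links the outside of the myelin sheath to the surrounding basal lamina. WT libraries 2, 4 and 5 held 437, 1503 and 513 normalized counts of it, and Mmp13-/- libraries 1, 2 and 6 held 307, 297 and 314. Every Mmp13-/- library lay below every WT library, and the Mmp13-/- libraries were nearly equal while WT library 4 was 2.93-fold above the next. The means were 818 ± 595 and 306 ± 8.62 (SD, n = 3 each), and the log2 fold change was -1.42 with an SE of 0.40 and a 95% interval of -2.31 to -0.53 (2.67-fold lower, edgeR adjusted p = 0.0139). Without WT replicate 4 the difference was smaller, 1.6-fold, and still passed (log2 fold change -0.68, edgeR adjusted p = 0.0145). After a correction of each library for GC content, which is 57.7% in the longest transcript of *Prx*, it did not pass (log2 fold change -0.48, edgeR adjusted p = 0.37). *Prx* shares 300 exon bases with *Gm15541* on the opposite strand, and since the strand setting of the counting is not given, reads of the pair in that stretch cannot be told apart.

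*Mbp* (ENSMUSG00000041607, chromosome 18) encodes myelin basic protein, which compacts the inner faces of the myelin membrane. It had 772, 2792 and 1199 normalized counts in WT and 834, 943 and 846 in Mmp13-/-. The genotypes overlapped, as WT library 2 lay below all 3 Mmp13-/- libraries. With means of 1588 ± 1065 and 874 ± 59.7 (SD, n = 3 each) the log2 fold change was -0.86, its SE 0.37, and its 95% interval -1.70 to -0.02, and the difference did not pass (edgeR adjusted p = 0.0791). Leaving out WT replicate 4 moved the log2 fold change to -0.21 (edgeR adjusted p = 0.442). In contrast, leaving out WT replicate 2 or 5, which gives library 4 more weight, brought *Mbp* past the threshold, at -1.27 and -1.10 (edgeR adjusted p = 0.0071 and 0.0416).

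*Pmp22* (ENSMUSG00000018217, GRCm38 chr11:63128982-63159547, + strand) encodes a membrane protein of compact peripheral myelin that fibroblasts and other growth-arrested cells also make. Normalized counts reached 827, 1656 and 708 in WT beside 849, 962 and 733 in Mmp13-/-. WT library 4 lay above and WT library 5 below every Mmp13-/- library. The log2 fold change of -0.32, with a 95% interval of -0.96 to 0.31, did not pass (edgeR adjusted p = 0.363), and it turned to 0.11 without that library (edgeR adjusted p = 0.675).

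*Mag* (ENSMUSG00000036634, GRCm38 chr7:30899176-30914873, - strand), a sialic acid-binding adhesion protein on the side of the sheath that faces the axon, was at a low level. It had 22.1, 90.2 and 34.0 normalized counts in WT and 17.4, 44.3 and 62.6 in Mmp13-/-. Both genotypes were widely scattered, 4.08-fold and 3.59-fold from lowest to highest library. The difference did not pass (log2 fold change -0.27, 95% interval -1.56 to 1.02, edgeR adjusted p = 0.725), and that interval spans more than a 2-fold change either way. In Mmp13-/- library 6 the stray signal alone would place 19.5 of the 40.0 counts on *Mag*. Its sign turned to 0.50 without WT replicate 4, to 0.05 without Mmp13-/- replicate 1 and to 0.69 after the GC correction.

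*Pmp2* (ENSMUSG00000052468, GRCm38 chr3:10179851-10183929, - strand) encodes a fatty acid-binding protein of peripheral myelin, found mainly around large axons. WT libraries held 2, 0 and 1 raw estimated counts of it and Mmp13-/- libraries 6.78, 12.4 and 7.03, too few for the filter. Every WT library was at or below the floor of 3 counts, so the Mmp13-/- mean was at least 3.27-fold higher than the mean WT floor. The stray signal would give 2.12, 2.47 and 6.76 counts in the Mmp13-/- libraries, nearly all of the count in library 6. *Pmp2* shares 1224 exon bases with *Gm37389* on the same strand, so its reads are also uncertain in origin. Without the filter *Pmp2* did not pass either (edgeR adjusted p = 0.064).

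Levels of different genes were compared per kilobase of exon, on the scale of normalized counts. In WT the order ran from *Pmp22* at 452 ± 219 through *Mbp* at 187 ± 126, *Prx* at 147 ± 107, *S100b* at 100.2 ± 12.7, *Sox10* at 34.2 ± 10.9 and *Egr2* at 15.9 ± 4.55 to *Mag* at 12 ± 8.93 (SD, n = 3). *Pmp2* was lowest, with all of its WT libraries at or under the floor. *Mbp* and *Prx* lay within each other's spread, as did *Egr2* and *Mag*. In Mmp13-/- *S100b*, at 135 ± 8.76, stood above *Mbp*, at 103 ± 7.04, and *Prx*, at 54.9 ± 1.54 (SD, n = 3), whereas in WT it lay within the spread of both. The WT order of these 3 genes rests on WT replicate 4, without which *Mbp* stood at 116, *S100b* at 93.4 and *Prx* at 85.1 per kilobase. The exon length of *Mbp* includes exons of its long forms, so its level per kilobase is a low estimate.

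*Sox10* (ENSMUSG00000033006, GRCm38 chr15:79154908-79165240, - strand), the lineage factor, had 74.6, 140 and 98.6 normalized counts in WT and 42.8, 66.9 and 66.2 in Mmp13-/-. All WT libraries lay above all Mmp13-/- libraries, with the gap between 74.6 and 66.9 small beside the spread within either genotype. The means were 104 ± 33.1 and 58.6 ± 13.7 (SD, n = 3 each), and the log2 fold change was -0.84 with an SE of 0.30 and a 95% interval of -1.52 to -0.17 (1.80-fold lower, edgeR adjusted p = 0.0389). *Sox10* also failed to pass with upper-quartile factors (-0.63, edgeR adjusted p = 0.142), total counts (-0.75, edgeR adjusted p = 0.057), at least 10 counts in every sample (-0.72, edgeR adjusted p = 0.0705), DESeq2 (-0.89, adjusted p = 0.0522) and limma (-0.87, adjusted p = 0.0549). The call was lost without WT replicate 4 (-0.61, edgeR adjusted p = 0.154) and without Mmp13-/- replicate 1 (-0.72, edgeR adjusted p = 0.0917). The longest transcript of *Sox10* has a GC content of 61.8%, the highest of the members, and after the GC correction the direction reversed, to a log2 fold change of 0.30 (edgeR adjusted p = 0.46).

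*Egr2* (ENSMUSG00000037868, GRCm38 chr10:67535475-67542188, + strand), the zinc finger factor of the myelinating state, which is also an early-response gene in immune and other cells, had 42.6, 71.5 and 47.6 normalized counts in WT and 47.4, 67.3 and 121 in Mmp13-/-. The ranges overlapped and library 6 held the highest value, with 16.3 of its 77.3 counts at the level of the stray signal. The log2 fold change of 0.52, with a 95% interval of -0.32 to 1.35, did not pass (edgeR adjusted p = 0.273). Without Mmp13-/- replicate 6 it was 0.09.

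*S100b* (ENSMUSG00000033208, GRCm38 chr10:76253853-76261159, + strand) encodes a calcium-binding protein of Schwann cells, made with or without myelin. It had 132, 169 and 145 normalized counts in WT and 199, 215 and 189 in Mmp13-/-, with only 1.28-fold between the lowest and highest WT library. Every Mmp13-/- library was above every WT library, the opposite side from *Prx* and *Sox10*. With means of 149 ± 18.8 and 201 ± 13.0 (SD, n = 3 each), the log2 fold change of 0.44, its SE 0.18 and its 95% interval of 0.05 to 0.83, came close to the threshold without passing (edgeR adjusted p = 0.0596). It passed after the GC correction (0.57, edgeR adjusted p = 0.0281) and after subtraction of the stray signal (0.56, edgeR adjusted p = 0.0216). Cartilage and fat cells make *S100b* as well, and of 9 tested genes of those tissues 3 rose and 1 fell, beside 27.3% and 24.3% of all tested genes. Whether called or not, 3 of the 9 had a positive and 6 a negative log2 fold change, with a median of -0.31. Without WT replicate 4 the balance of calls turned, with 1 higher and 2 lower, beside 21.6% and 18.9% of all tested genes. *Adipoq*, the fat cell hormone adiponectin, was at 23.1, 17.3 and 38.8 normalized counts in WT and 109, 112 and 117 in Mmp13-/- (log2 fold change 2.09, edgeR adjusted p = 0.000549). The summed level of the cartilage and fat list was 3603 to 3901 in WT and 2466 to 3110 in Mmp13-/-, and its part in the *S100b* values was not tested.

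**Figure D2:**
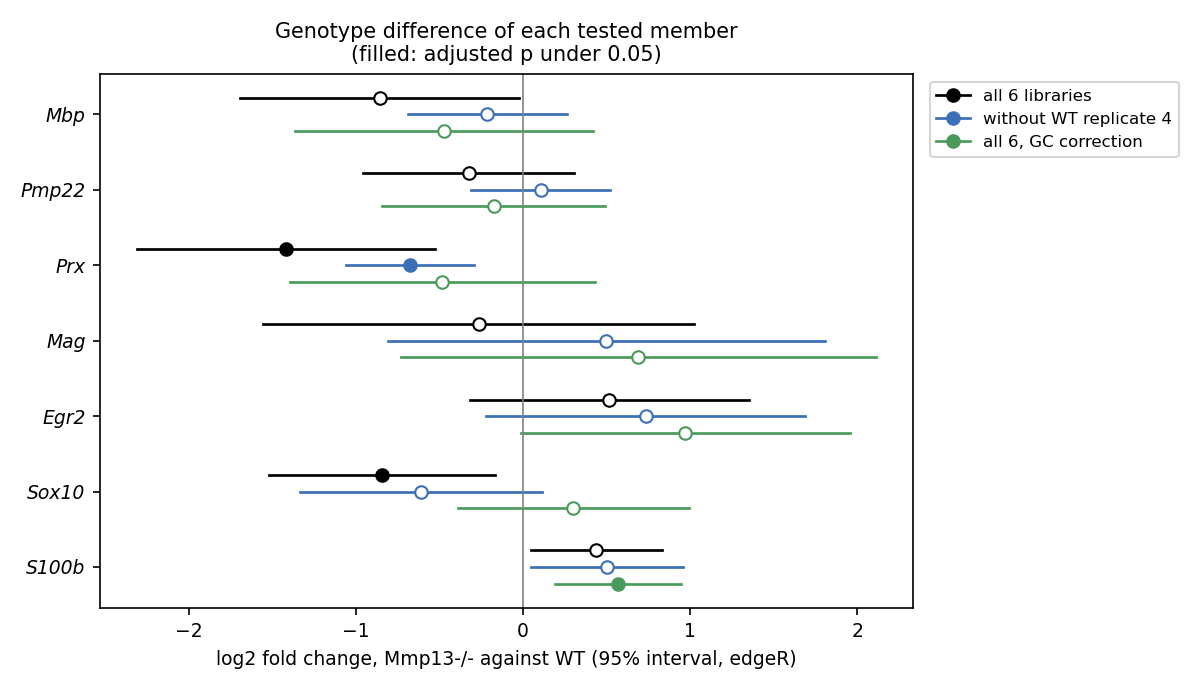
Log2 fold change of Mmp13-/- against WT (x axis) with its 95% interval for the 7 tested members, with all 6 libraries, without WT replicate 4 and with all 6 after the GC correction; filled points passed an adjusted p under 0.05. *Prx* passed with and without WT replicate 4, *Sox10* passed only with all 6 libraries uncorrected and crossed 0 with the correction, and *S100b* stayed on the positive side in all 3 fits.

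WT replicate 4 was the highest WT library for 7 of the 7 tested members, while it was so for 31.2% of all tested genes. It was over 2-fold above both other WT libraries for *Mbp*, *Pmp22*, *Prx* and *Mag*, 4 of 7, against 1.65% of all tested genes (404 of 24534). *Pmp22* was just past that limit, whereas *Egr2*, *Sox10* and *S100b* were 1.5-fold, 1.42-fold and 1.16-fold above the next WT library. The members with this excess are structural proteins of the sheath, and the regulators and *S100b* were below it. The excess was not particular to the members. Of 16 other myelin proteins tested, WT replicate 4 was the highest WT library for 12 and over 2-fold above both others for 7. The latter held for 1 of 13 ligands and receptors, and for 0 of the transcription factors, the precursor and repair markers and the node genes. The members together summed to 2308, 6421 and 2747 normalized counts in WT against 2302, 2607 and 2344 in Mmp13-/-, so that WT library 2 lay within the range of Mmp13-/- and WT library 5 just above it. The summed level of the sensory neuron and axon genes did not share the excess, at 759, 728 and 736 in WT libraries 2, 4 and 5. *Nefl*, *Nefm*, *Scn9a* and *Scn10a* had no WT library above 3 counts, so that sum rests on the other genes of the list. It does not measure the amount of nerve. Without WT replicate 4, 1 member, *Prx*, fell and 0 rose, where 18.9% of all tested genes fell and 21.6% rose, and the median log2 fold change of the members was 0.11.

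Likeness in pattern was measured as the root mean square distance between log2 normalized counts centred over the 6 libraries. *Mbp* and *Prx* were the closest pair of members, at 0.30. Over the 19049 candidate genes, *Mbp* was nearest to *Cish* at 0.25, *Drp2* at 0.25 and *Gm42589* at 0.26. *Drp2* encodes a dystroglycan-complex protein that binds periaxin in Schwann cells. *Sox10* was nearest to *Rtn4r* at 0.13, *Pced1b* at 0.15 and *Cadm3* at 0.15. Its nearest member was *Mbp*, at 0.35, while *Egr2* and *S100b* were nearest to each other, at 0.44. These distances rest on 6 libraries and describe them only.

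Beyond the members, 72 other genes of Schwann cells were grouped by role, and 71 could be tested. In all 15 rose and 21 fell, 21.1% and 29.6%, beside 27.3% and 24.3% of all tested genes. After the GC correction 18 rose and 8 fell, beside 23.8% and 12.9%, so the balance of the lists between higher and lower rests on that choice.

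Of the other proteins of peripheral myelin, 16 of 17 were tested, 0 rose and 2 fell, *Cadm4* and *Drp2*. The share that fell was 12.5%, where 24.3% of all tested genes fell and 27.3% rose. *Cadm4*, the Schwann cell adhesion protein that meets the axon along the internode, had 203, 409 and 280 normalized counts in WT and 166, 118 and 153 in Mmp13-/-, below WT in every library (log2 fold change -1.02, edgeR adjusted p = 0.00827). It kept its call without WT replicate 4 (-0.77, edgeR adjusted p = 0.0304) and moved to 0.04 after the GC correction. *Drp2* was at 675, 1390 and 694 in WT and 464, 607 and 509 in Mmp13-/- (log2 fold change -0.80, edgeR adjusted p = 0.0287), and without WT replicate 4 it no longer passed (-0.42, edgeR adjusted p = 0.0868), nor without Mmp13-/- replicate 6 (-0.78, edgeR adjusted p = 0.0736). *Cnp*, an enzyme of myelin-forming cells, gave -0.08 (edgeR adjusted p = 0.756), turned to 0.12 under upper-quartile scaling and to 0.05 on total counts, and passed at 0.61 after the GC correction (edgeR adjusted p = 0.0196). *Gjb1*, the gap junction protein of the sheath, was not tested, with 26.0 normalized counts in WT library 4 and 3.95 to 11.8 elsewhere.

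Of 17 markers of precursor, immature, non-myelinating and repair Schwann cells, 5 rose and 1 fell, 29.4% and 5.88% beside 27.3% and 24.3% of all tested genes. After the GC correction 9 rose and 0 fell, where 23.8% of all tested genes rose and 12.9% fell. *Cdh19*, a cadherin of Schwann cell precursors that stays on in the lineage, had 17.5, 20.9 and 22.6 normalized counts in WT and 91.9, 131 and 140 in Mmp13-/-. *Scn7a*, a sodium channel gene expressed in non-myelinating Schwann cells and in some neurons, had 78.4, 67.1 and 84.3 in WT and 282, 324 and 289 in Mmp13-/-. Both were far apart between genotypes and steady within them. The log2 fold changes were 2.54 for *Cdh19* and 1.97 for *Scn7a* (edgeR adjusted p = 0.000151 and 7.24e-05). Both kept their call after the GC correction, at 1.42 and 1.23, and WT replicate 4 was the highest WT library for neither. The stray signal amounted to 6.44, 7.51 and 20.5 of the 107, 145 and 89.2 raw counts of *Cdh19* in Mmp13-/- libraries 1, 2 and 6. *Cadm1*, an adhesion gene that many cell types use, rose by 1.11 (edgeR adjusted p = 0.0015). *Fabp7*, a fatty acid-binding protein of immature Schwann cells, rose by 3.17 from 0, 1.86 and 5.92 normalized counts in WT to 19.5, 29.0 and 23.4 in Mmp13-/- (edgeR adjusted p = 0.00906). No WT library of *Fabp7* met the filter on low counts, so it was tested only through Mmp13-/- and could only rise. Its call was lost without WT replicate 4 (2.95, edgeR adjusted p = 0.0558), and its log2 fold change was 2.53 without WT replicate 2 and 4.45 without WT replicate 5. *Olig1* had all WT libraries at or under 3 counts and was at least 8.03-fold higher. It passed the filter only through Mmp13-/- and could only rise. Its raw counts in Mmp13-/- were 14, 10.7 and 30, of which the stray signal would give 3.25, 3.80 and 10.4, and the fitted log2 fold change fell from 4.87 to 3.89 without Mmp13-/- replicate 6. *Artn*, the growth factor artemin, was the gene that fell (-1.27, edgeR adjusted p = 0.0255), and it stood at -0.16 after the GC correction (edgeR adjusted p = 0.789). Without WT replicate 4 or 5 or Mmp13-/- replicate 2 it was -1.27, -1.15 and -1.05 and did not pass. *Ngfr*, the p75 receptor of immature and repair cells, gave -0.45 (edgeR adjusted p = 0.145), turned to 0.52 after the GC correction and passed at -0.70 without WT replicate 5 (edgeR adjusted p = 0.0357).

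**Figure D3:**
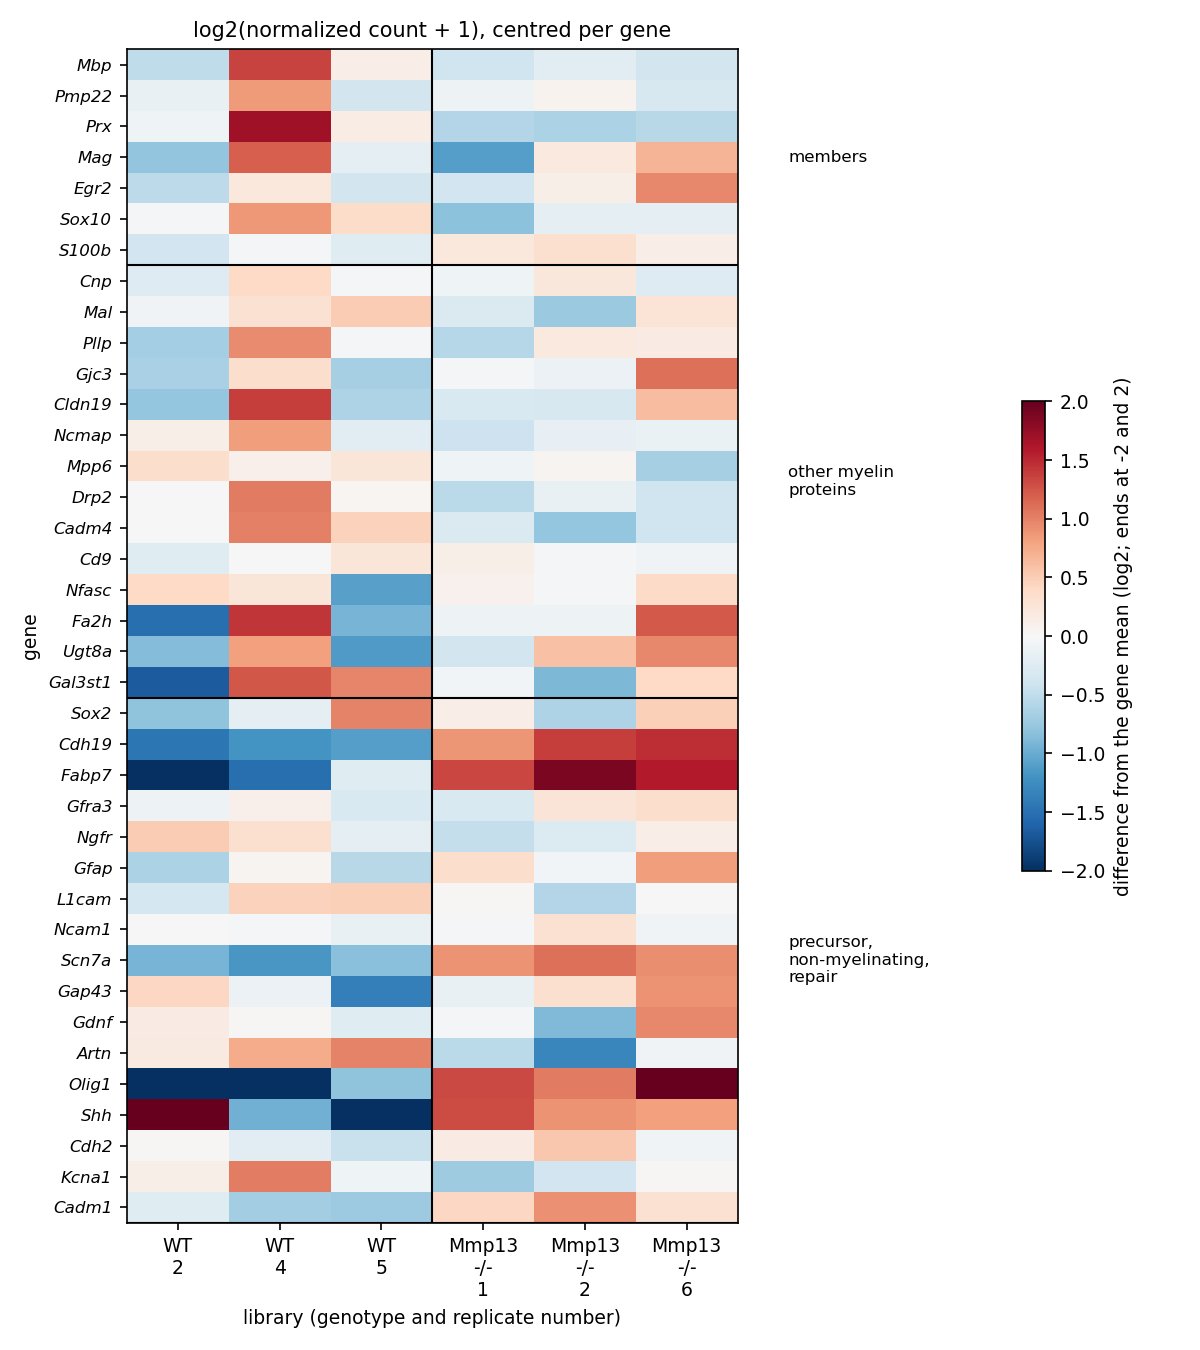
Log2 normalized counts (pseudocount 1), centred per gene, for the tested members, a selection of other myelin proteins and markers of precursor, non-myelinating and repair Schwann cells (rows) in the 6 libraries (columns); red is above and blue below the mean of the gene, and the colour ends at 2 either way. WT replicate 4 is red for most myelin genes, and *Cdh19*, *Scn7a*, *Fabp7* and *Cadm1* are red in the 3 Mmp13-/- libraries and blue or pale in WT.

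Among 17 transcription factors and cofactors of the lineage, 2 rose and 9 fell, 11.8% and 52.9% beside 27.3% and 24.3% of all tested genes. After the GC correction 2 rose and 6 fell, where 23.8% of all tested genes rose and 12.9% fell. *Id4* and *Nfatc4*, an inhibitor of helix-loop-helix factors and a calcineurin-dependent partner of Sox10, fell by 1.71 and 1.41 on the log2 scale (edgeR adjusted p = 0.000138 and 0.000153). Both also fell after the GC correction, by 2.20 and 0.44. *Nab2*, a cofactor that Egr2 binds, fell by 1.08 (edgeR adjusted p = 0.00044) and stood at -0.03 after that correction. *Id2* rose by 0.67 (edgeR adjusted p = 0.00871) and did not pass without WT replicate 4 (0.52) or 5 (0.56). *Pou3f2* rose from 3.73, 0 and 0 normalized counts in WT to 15.5, 16.3 and 85.1 in Mmp13-/- (edgeR adjusted p = 0.00603). Like *Olig1*, it passed the filter only through Mmp13-/- and could only rise. The stray signal would give 8.41, 9.81 and 26.8 of its 18.1, 18.0 and 54.4 raw counts there, and its log2 fold change ran from 3.54 without Mmp13-/- replicate 6 to 8.20 without WT replicate 2. *Pou3f1*, the factor of the promyelinating stage, gave -0.13 (edgeR adjusted p = 0.839), and 0.12 with upper-quartile factors. Most of these factors act in many pulp cell types.

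Of 13 ligands and receptors of Schwann cell growth and myelination, 4 rose and 7 fell, 30.8% and 53.8% beside 27.3% and 24.3% of all tested genes. After the GC correction 2 rose and 0 fell, where 23.8% of all tested genes rose and 12.9% fell. *Erbb3*, the neuregulin receptor subunit of Schwann cells, had 851, 1487 and 1646 normalized counts in WT and 992, 563 and 882 in Mmp13-/-, and the genotypes overlapped. Its log2 fold change of -0.71 passed (edgeR adjusted p = 0.0475) and was lost with RLE factors (-0.70, edgeR adjusted p = 0.0512), without WT replicate 4 (-0.66) or 5 (-0.60), without Mmp13-/- replicate 2 (-0.56) or 6 (-0.77) and after the GC correction (-0.30, edgeR adjusted p = 0.419). *Nrg1*, its ligand neuregulin 1, rose by 1.42 (edgeR adjusted p = 0.00507), and did not pass after the GC correction (0.98, edgeR adjusted p = 0.0882). *Adgrg6*, the adhesion receptor that Schwann cells need to start myelination, rose by 1.21 from 543, 554 and 563 normalized counts to 1245, 1121 and 1490.4 (edgeR adjusted p = 0.000194), and by 0.92 after the GC correction (edgeR adjusted p = 0.00667). *Adam22*, the receptor of Lgi4, rose by 0.63 (edgeR adjusted p = 0.00352). *Itgb4*, *Gas6* and *Axl* fell by 1.34, 1.06 and 0.93 (edgeR adjusted p = 0.000313, 0.000535 and 0.00119). After the GC correction *Itgb4*, the laminin receptor subunit that epithelia also use, stood at -0.28, *Gas6* at -0.23 and *Axl* at -0.28, and none of the 3 passed.

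At the node of Ranvier and the paranode, where the sheath ends against the axon, 4 of 11 genes rose and 2 fell. These shares were 36.4% and 18.2%, beside 27.3% and 24.3% of all tested genes. *Nrcam* and *Scn8a*, an adhesion protein and a sodium channel subunit that neurons make, rose by 2.30 and 2.35 (edgeR adjusted p = 0.000916 and 0.00535). Without Mmp13-/- replicate 6 *Scn8a* was at 1.45. *Cntnap1*, the axonal partner of the paranodal junction, and *Ank3*, which anchors nodal channels, fell by 1.07 and 0.72 (edgeR adjusted p = 0.000374 and 0.0032). After the GC correction *Cntnap1* no longer passed (-0.27, edgeR adjusted p = 0.14).

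**Figure D4:**
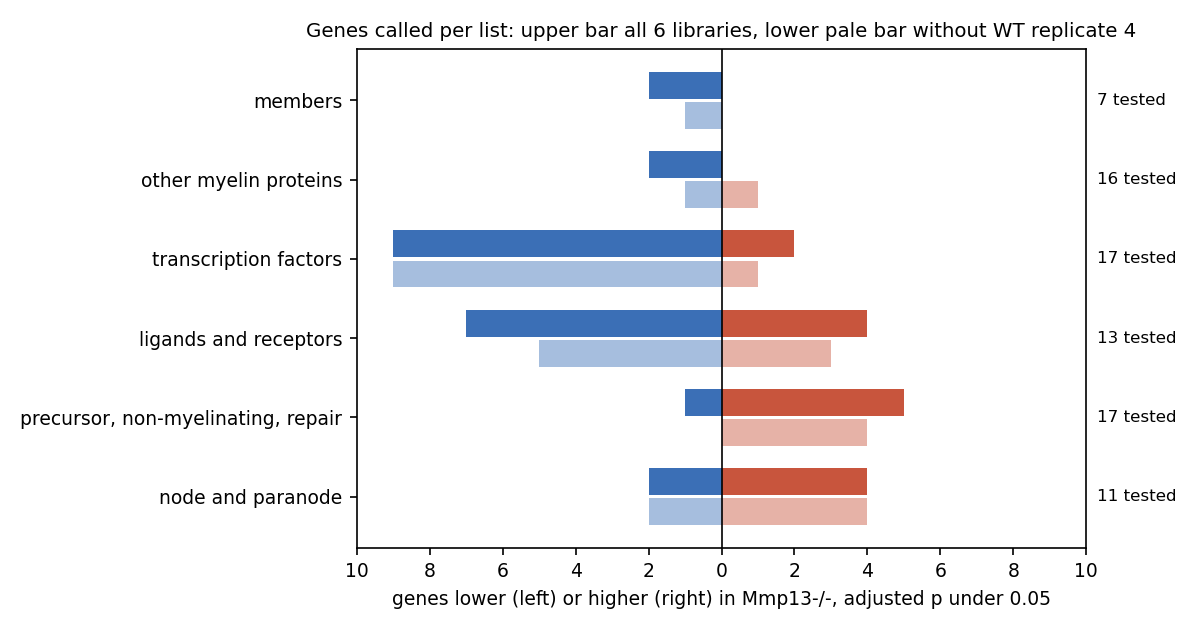
Number of genes lower (blue, left) or higher (red, right) in Mmp13-/- at an adjusted p under 0.05 (x axis) in the members and the 5 other Schwann cell lists, with all 6 libraries (upper bars) and without WT replicate 4 (lower pale bars). Markers of precursor, non-myelinating and repair cells have 5 higher and 1 lower, transcription factors 2 higher and 9 lower, and the members 0 higher and 2 lower, beside 27.3% higher and 24.3% lower over all tested genes.

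Cell types that share these genes were read beside them. Oligodendrocytes make *Mbp* and *Mag* in the central nervous system, and of 8 of their genes 6 were tested, 4 rose and 0 fell. Over all tested genes 27.3% rose and 24.3% fell. The summed level of that list was 99.0 to 112 in WT and 201, 196 and 420 in Mmp13-/- libraries 1, 2 and 6. *Mobp* was at 0 in all WT libraries and at 27.0, 30.2 and 92.8 normalized counts in Mmp13-/-, at least 17.5-fold higher. The stray signal would give 32.9 of its 59.3 raw counts in library 6. *Opalin* and *Olig2* had no WT library above 3 counts and were not tested. Sensory neuron and axon genes rose in 7 of 12 tested and fell in 0. Without WT replicate 4 they rose in 4 of 12, beside 21.6% of all tested genes. *Mobp*, *Ermn*, *Nefm*, *Scn9a* and *Scn10a* had no WT library above 3 counts and passed the filter only through Mmp13-/-. Such genes could only rise, so the direction of the oligodendrocyte and neuron counts was partly set in advance by the filter. *Nefm*, a neurofilament subunit, was at least 18.0-fold higher and *Scn10a*, a sodium channel of pain-sensing neurons, at least 20.4-fold higher. Without Mmp13-/- replicate 6 their fitted log2 fold changes fell from 5.56 to 4.92 and from 8.84 to 7.73. In that library the stray signal would give 27.8 of 57.6 raw counts of *Nefm* and 38.2 of 80.0 of *Scn10a*. The cell bodies of those neurons lie outside the tooth, and the summed level of the list was highest in Mmp13-/- library 6, at 1282, with 824 and 847 in libraries 1 and 2. Melanocytes, which also use *Sox10*, had 3 of 7 genes tested, 0 rose and 0 fell, at summed levels of 459 to 468 in WT and 432 to 591 in Mmp13-/-. Salivary and oral epithelium, whose gland cells can use *Sox10*, had 6 of 8 genes tested, 2 rose and 2 fell, at summed levels of 49724 to 105714 in WT and 25012 to 40107 in Mmp13-/-. The part of these cell types in the member values was not tested.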

How the data were processed

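Dental pulp RNA of 3 WT and 3 Mmp13-/- mice had been sequenced, and the genotype in the labels gave each sample its group. The authors deposited estimated counts per gene, made from aligned reads in Strand NGS with fractions where reads were shared, and log2 values normalized from them with size factors and centred on each gene's median. The labels name the build mm10 and DESeq. Aligner settings, strand and annotation release are not given in the sources used here. After rounding to whole numbers, these counts entered edgeR 4.0.16 in R 4.3.3 (quasi-likelihood test, TMM factors, filter on low counts by genotype, Benjamini-Hochberg adjustment over all genes tested, no covariate), the threshold being an adjusted p of 0.05. The p-values measure the spread between samples that the study calls independent. Normalized counts are counts over the effective (TMM) library size, multiplied by the mean library total. Library totals were 21561420 to 29980236 counts. Where all WT libraries were at or under 3 counts after rounding, folds are lower bounds against that floor, averaged over WT, which covers counting error only.

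Gene positions, exon length and GC content came from GENCODE M21 on GRCm38, matched for 99.8% of genes. GC content was that of the longest transcript of each gene. Stray signal was the summed count of 1451 odorant and vomeronasal receptor genes per kilobase of their exons, assumed to hold for the exons of every gene. The GC correction used offsets from a loess fit (span 0.4). The alternatives were RLE, upper-quartile and no factors, 2 other filters, DESeq2 1.42.0, limma 3.58.1 on the deposited log2 values, a test against a 2-fold change, the GC correction, subtraction of stray signal, both together and each library left out. The edgeR fits with and without a GC correction, DESeq2 and limma were tested on simulated data. Those data held few changed genes, as many higher as lower, with the same variability setting for every gene. They do not show how the fits perform where as many genes are called as here.

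The members and gene lists were chosen with earlier results of these data known. Named genes are the members, *Mmp13*, defining genes of the Schwann cell lists, up to 3 genes per Schwann cell or sterol list and direction with the smallest adjusted p, untested list genes, and the 3 nearest genes to *Sox10* and *Mbp*. For other cell types a few genes were named, and *Fabp7*, *Olig1* and *Adipoq* were chosen after their values were seen. Some genes that this rule names are not reported here.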

Additional observations from a re-analysis of the deposited data

How the results depend on the processing

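Of 126 log2 fold changes of the 7 tested members under 18 alternatives, 93 kept their direction and side of the threshold, 12 no longer passed, 9 came to pass and 12 reversed. *Prx* passed with each library left out, at -1.80 to -0.68 (edgeR adjusted p = 0.00288 to 0.0433). It did not pass in limma (-1.25, adjusted p = 0.0708), in the test against a 2-fold change or with any GC correction. Ranges with each library left out were -1.12 to -0.61 for *Sox10*, -1.27 to -0.21 for *Mbp*, -0.62 to 0.11 for *Pmp22*, -0.69 to 0.50 for *Mag*, 0.09 to 0.73 for *Egr2* and 0.28 to 0.50 for *S100b*. The GC correction reversed *Mag* (0.69) and *Sox10* (0.30), and with stray signal also subtracted they stood at 0.13 and 0.073. The GC correction without WT replicate 4, chosen after seeing the data, reversed *Mbp* (0.19), *Pmp22* (0.29), *Prx* (0.24), *Mag* (1.44) and *Sox10* (0.53). *Pmp22* (0.11) and *Mag* (0.50) reversed without WT replicate 4, and *Mag* (0.05) without Mmp13-/- replicate 1.

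The number of members that rose, 0 with all libraries, was 1 (*S100b*) with upper-quartile factors, at least 10 counts in every sample, the GC correction, stray signal subtracted, both together, and the GC correction without WT replicate 4, and was 0 with each library left out. The number that fell, 2, was 1 with upper-quartile factors, total counts without factors, at least 10 counts in every sample and DESeq2, 0 in limma, in the test against a 2-fold change and under the 3 GC corrections, and 1 to 3 with each library left out. In the other Schwann cell lists the 15 that rose were 6 in the test against a 2-fold change and 9 with the GC correction without WT replicate 4, and 12 to 16 with each library left out. The 21 that fell were 2, 8, 9 and 4 in the test against a 2-fold change, the GC correction, that with stray signal subtracted and that without WT replicate 4, and 17 to 26 with each library left out. Apart from the tests built to call fewer genes, the cause was not tested. Of all tested genes 27.3% rose and 24.3% fell with all libraries. These shares were 21.6% and 18.9% without WT replicate 4, and 23.8% and 12.9% after the GC correction. For the other settings no such share is given, so the counts there describe the lists only.

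The median over all tested genes shifted upward by 0.21 (log2) with upper-quartile factors, by 0.11 with total counts and by 0.12 with the GC correction. No paired analysis was possible because the labels give no pairing of WT with Mmp13-/- animals. Counts limit *Pmp2*, *Mag* and *Egr2* most.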

Other observations

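Myelin is rich in cholesterol, which Schwann cells make themselves, and 24 enzymes and regulators of sterol synthesis were therefore read beside the myelin genes. Of these 2 rose and 9 fell. Their median log2 fold change was -0.41, and 27.3% of all tested genes rose and 24.3% fell. The regulators *Srebf1*, *Srebf2* and *Scap*, which switch on the pathway in most cell types, fell by 1.35, 1.17 and 1.02 on the log2 scale (edgeR adjusted p = 0.000153, 0.000396 and 0.000397). *Cyp51* and *Msmo1*, enzymes that trim lanosterol, rose by 0.68 and 0.70 (edgeR adjusted p = 0.0172 and 0.0393), and neither passed without WT replicate 2 or 4 or Mmp13-/- replicate 1. After the GC correction 1 gene rose, *Cyp51*, and 1 fell, where 23.8% of all tested genes rose and 12.9% fell. *Srebf1* was then at -0.39 (edgeR adjusted p = 0.0126), while *Srebf2* and *Scap* were at -0.24 and -0.02. WT replicate 4 was the highest WT library for 4 of the 24 genes and over 2-fold above the others for 0. Over all tested genes these shares were 31.2% and 1.65%.

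Other cells of the pulp were read in the same way. Of 8 macrophage genes 3 rose and 0 fell, beside 27.3% and 24.3% of all tested genes. After the GC correction 8 rose, when 23.8% of all tested genes rose and 12.9% fell. Pulp mesenchyme genes rose in 3 of 8 and fell in 3, and their summed level was 791470 to 1114840 normalized counts in WT and 335917 to 484221 in Mmp13-/-, without overlap. Endothelial genes rose in 1 of 8 and fell in 4, and the balance turned to 3 higher and 1 lower after the GC correction.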
